A study of Arabidopsis thaliana with 3 samples.

Results

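The plastid genome of Arabidopsis thaliana encodes the core proteins of the photosynthetic machinery. The genes described here are those of the plastid genome whose symbol starts with psa, psb, pet or atp, together with rbcL, accD, cemA and ccsA. All 36 such genes of the reference annotation have a probe set of their own on the array, out of 13356 genes named by a probe set of 1 gene. They fall into photosystem I (5 genes), photosystem II (15), the cytochrome b6f complex (6), the ATP synthase (6) and the 4 single genes. Each is measured by 1 probe set, so no choice between probe sets was needed, and none of these probe sets carries a suffix that marks cross-reading.

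Leaf RNA of 2 week old plants was hybridised to 3 arrays, 1 per genotype. A pair of MKK2 overexpression lines in the Col-0 accession was used. One, called MKK2-A here, is titled w.t.4 while its source name reads EE4. The other, MKK2-B, is titled EE4 while its source name reads w.t.4. The third array holds untreated Col-0 plants. The study overexpressed MKK2, a MAP kinase kinase, in its wild-type form and in a constitutively active form. Because the labels contradict each other, no direction between these forms is given. The labels give no promoter, no number of independent transformants and no number of pooled plants. With 1 array per genotype, no difference below has a replicate check, and no p-value or error across plants can be given. The number of arrays limits the precision.

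In the light reactions, photosystem II splits water and passes electrons through the cytochrome b6f complex to photosystem I, while the ATP synthase uses the resulting proton gradient. Rubisco, whose large subunit is rbcL, fixes carbon dioxide. Most subunits around these plastid-encoded cores come from the nucleus. Plastid genes are largely transcribed in operons, from many genome copies per cell, by a bacterial-type polymerase with nuclear sigma factors and by a phage-type polymerase. Their mRNAs mostly lack long poly(A) tails, and polyadenylation in plastids marks RNA for decay. The labels do not give the primer used to label the RNA, so the amount of a plastid transcript and the share of it that was labelled cannot be told apart. Nor can fewer plastids or genome copies be told apart from fewer transcripts per copy.

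Values are linear MAS5 signals, which summarise the probes of a probe set into 1 number, scaled to a trimmed mean of 100 on each array. Signals under 25 count as 25 in ratios. None of the 36 genes was under 25 on any array. Signals of 1000 or more were reached by 27 of them in MKK2-A, 26 in MKK2-B and 26 in Col-0. The leaf markers RCA (rubisco activase), LHCB4.1 (a light-harvesting protein) and PSAE1 had signals of 4324 or more on every array, and the root hair gene EXPA7 was under 25 on all 3. Only these 3 of 8 listed leaf markers, and 1 of 7 listed markers of other cell types, had a named probe set. RNA integrity is reflected in the 3′ to 5′ ratio of control transcripts, and for the first actin control it was 4.09 in MKK2-A and 3.83 in MKK2-B, against 3.03 in Col-0. Of 6 such ratios (actin, GAPDH and ubiquitin), 4 were higher in both lines than in Col-0 and 2 were lower in both. Their part in the differences below was not tested.

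**Figure D1:**
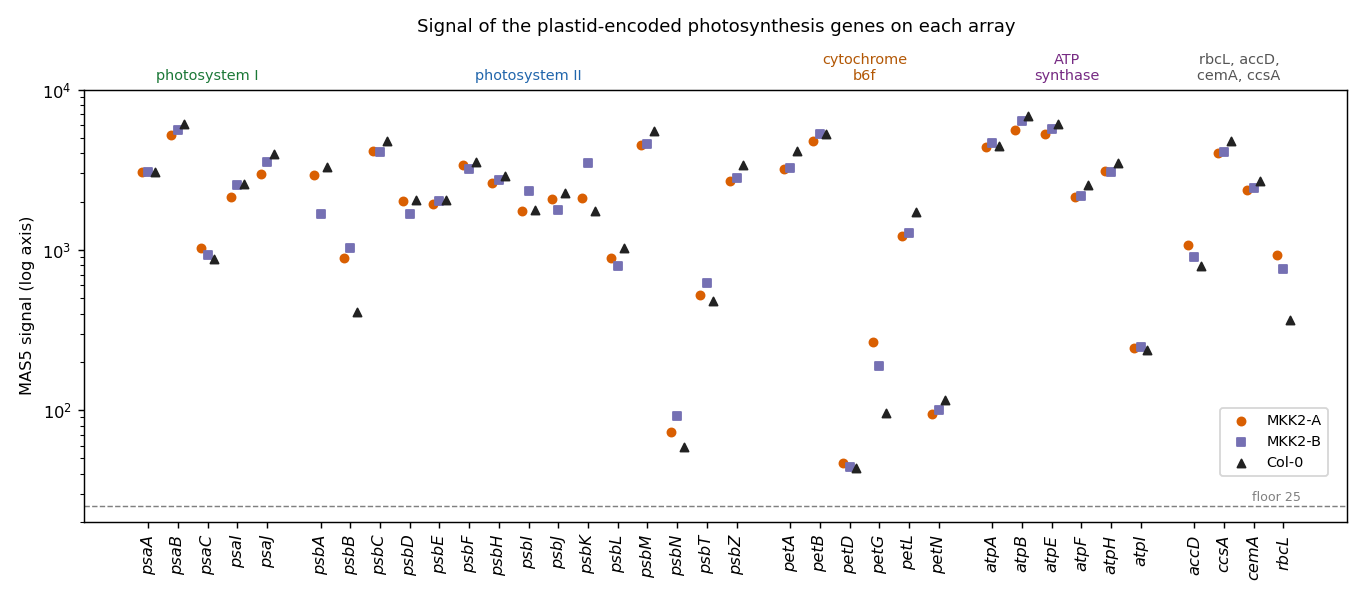
MAS5 signal (log axis) of each of the 36 genes, grouped by complex; circles are MKK2-A, squares MKK2-B and triangles Col-0, with 1 array each. The symbols of most genes nearly coincide, while psbB, petG and rbcL have their Col-0 symbol well below both lines and psbA and psbK have MKK2-B apart from MKK2-A.

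Most of the plastid photosynthesis genes had nearly the same signal on all 3 arrays. In MKK2-A against Col-0, 33 of 36 were within 1.5-fold, in MKK2-B against Col-0, 30 were, and in MKK2-A against MKK2-B, 34 were. Of all 22746 probe sets compared, 21101, 21336 and 21663 were within 1.5-fold in the same order, counting those held at the floor of 25. The share of members within 1.5-fold was thus no larger than that of all probe sets in any comparison. Of the 36 genes, 3 (8.33%) were at least 2-fold higher in MKK2-A than in Col-0, namely petG, rbcL and psbB, where 1.40% of all 22746 probe sets compared were. In MKK2-B 2 genes were 2-fold or more higher than Col-0, rbcL and psbB, against 0.941% of all probe sets. These shares of all probe sets include those held at the floor of 25, where no member lay. All 3 genes had a mean signal of 100 to 1000, a class that holds 9 members. Of the 5467 probe sets in it not named to a plastid gene, 3.60% were 2-fold or more higher in MKK2-A and 2.54% in MKK2-B. No member was 2-fold lower in MKK2-A (0.391% of all probe sets) or in MKK2-B (0.536%), and none differed 2-fold between MKK2-A and MKK2-B (0.585% higher and 0.180% lower). Just under the threshold in MKK2-B lay psbK at 1.98-fold and petG at 1.96-fold of Col-0, and psbA, which was 1.97-fold lower.

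**Figure D2:**
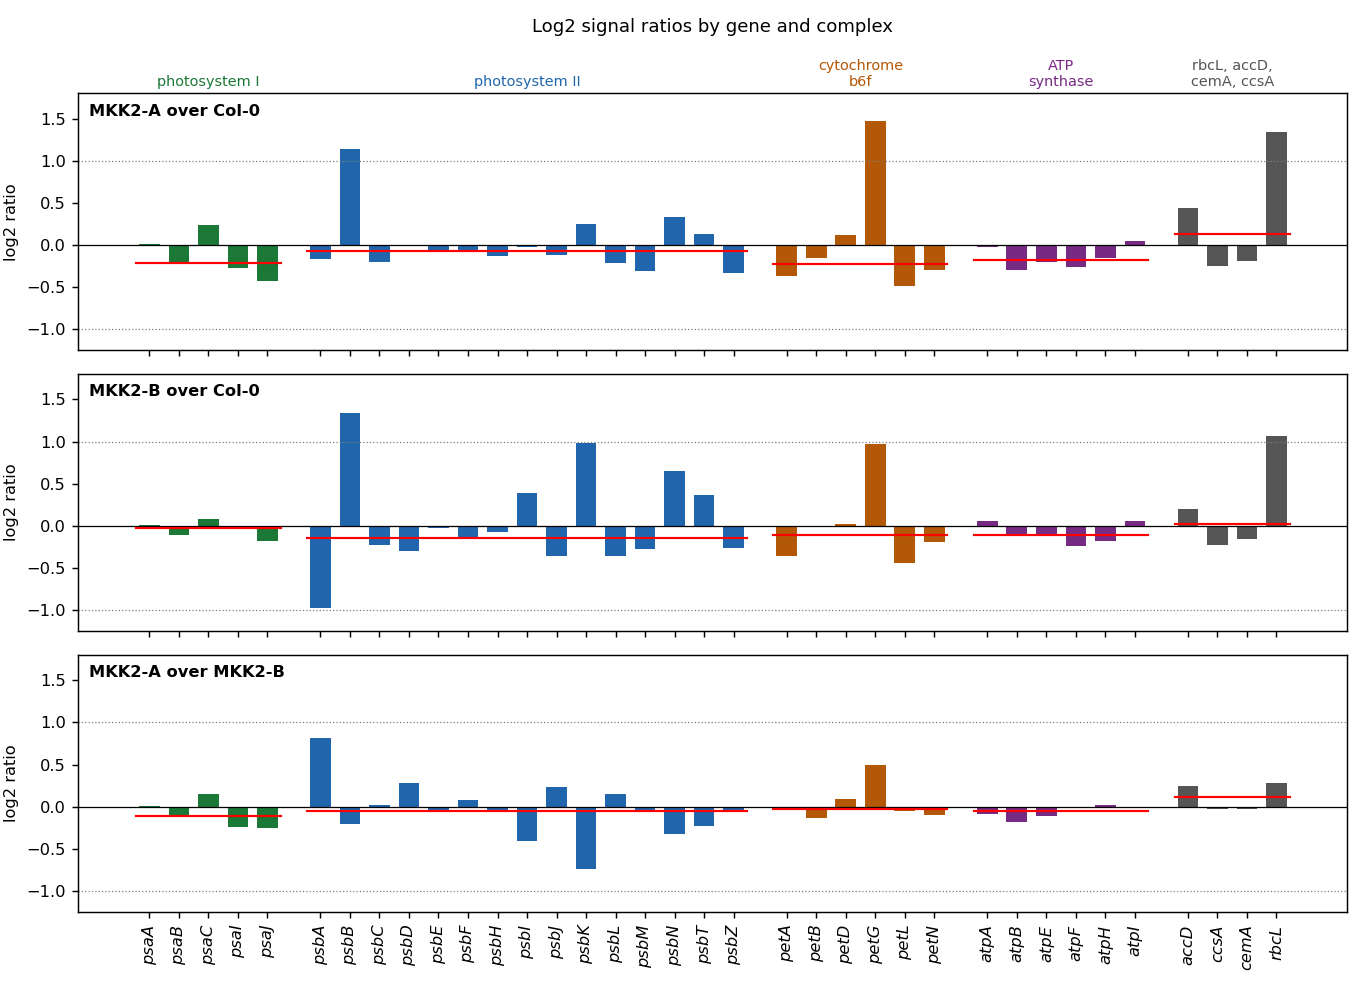
Log2 signal ratios of the 36 genes for MKK2-A over Col-0 (top), MKK2-B over Col-0 (middle) and MKK2-A over MKK2-B (bottom), with genes grouped by complex; red lines are the complex medians and dotted lines mark 2-fold. Each complex has its median close to 0, and single genes such as petG, rbcL, psbB and psbA stand far from the median of their own complex.

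The medians of the 4 complexes lay closer together than the genes within any 1 complex. The median log2 ratio of MKK2-A over Col-0 was -0.22 for photosystem I, -0.08 for photosystem II, -0.23 for cytochrome b6f, -0.18 for the ATP synthase and 0.12 for the 4 single genes. For MKK2-B over Col-0 these medians were -0.03, -0.15, -0.11, -0.11 and 0.02 in the same order. For MKK2-A over MKK2-B they were -0.11, -0.06, -0.03, -0.05 and 0.11. Over all 36 genes the median was -0.14 in MKK2-A, -0.10 in MKK2-B and -0.03 between the lines, and over all probe sets compared it was 0.00 each time. Medians this small can change sign with the scaling: quantile normalization gave 0.034 for photosystem I in MKK2-B and 0.036 for cytochrome b6f between the lines. Within complexes the ratios spread much further. In MKK2-A they reached from -0.49 to 1.47 in cytochrome b6f and from -0.33 to 1.13 in photosystem II, but only from -0.43 to 0.23 in photosystem I and from -0.30 to 0.04 in the ATP synthase. In MKK2-B the ranges were -0.44 to 0.97, -0.98 to 1.33, -0.18 to 0.08 and -0.24 to 0.06 in that order. The ranges of all 4 complexes overlapped in each comparison, so the complex medians do not separate the complexes on these arrays. The complexes also differ in their share of dimmer genes. Of members with a mean signal of 1000 or more, photosystem I holds 4, photosystem II 11, cytochrome b6f 3 and the ATP synthase 5. Their medians in that order were -0.24, -0.12, -0.37 and -0.21 in MKK2-A and -0.07, -0.23, -0.36 and -0.11 in MKK2-B. The ranges of these brighter members overlapped as well.

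Photosystem I had the narrowest range of ratios to Col-0 in MKK2-B, with no gene beyond 1.5-fold in any comparison. Its core proteins psaA and psaB bind the chlorophylls of the reaction centre. The psaA signal was 3075 in MKK2-A, 3067 in MKK2-B and 3046 in Col-0, the closest agreement of the 3 arrays for any of the 5 genes. The psaB signal was 5231 in MKK2-A, 5632 in MKK2-B and 6077 in Col-0. The iron-sulphur subunit gene psaC stood highest, with 1030 in MKK2-A and 926 in MKK2-B against 876 in Col-0, a 1.18-fold and a 1.06-fold difference. The small membrane subunit psaJ stood lowest, with 2967 in MKK2-A and 3524 in MKK2-B against 3985 in Col-0, so it was 1.34-fold lower in MKK2-A and 1.13-fold lower in MKK2-B. For psaI, another small subunit, MKK2-A had 2142 and MKK2-B 2535, against 2584 in Col-0.

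Photosystem II held the widest range of ratios in MKK2-B and between the lines. Its reaction centre proteins are encoded by psbA (the D1 protein, which is damaged by light and continually replaced) and psbD (the D2 protein). The psbA signal (locus ArthCp002) was 2934 in MKK2-A and 1674 in MKK2-B, against 3297 in Col-0. MKK2-A and Col-0 thus lay close together, 1.12-fold apart, and MKK2-B lay below both, 1.97-fold below Col-0. Between the lines psbA was 1.75-fold higher in MKK2-A. The psbD signal was 2025 in MKK2-A, 1668 in MKK2-B and 2050 in Col-0, so MKK2-B was again the lowest, at 0.814-fold of Col-0.

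The inner antenna proteins of photosystem II are encoded by psbB and psbC. The psbB signal (ArthCp049) was 894 in MKK2-A and 1027 in MKK2-B, against 407 in Col-0, so it was 2.19-fold higher in MKK2-A and 2.52-fold higher in MKK2-B. Both lines were more than 2-fold above the same Col-0 array, and their own ratio was 0.870-fold. The psbC signal, by contrast, was 4116 in MKK2-A and 4054 in MKK2-B against 4750 in Col-0, 0.866-fold and 0.853-fold. The antenna genes thus lay on opposite sides of Col-0 in both lines. The psbC ratios were close to the median of members with a mean signal of 1000 or more, which was 0.878-fold in MKK2-A and 0.895-fold in MKK2-B.

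Among the small photosystem II subunits psbK and psbI, neighbours on the genome that are transcribed together, MKK2-B stood above the other arrays. The psbK signal (ArthCp005) was 2093 in MKK2-A and 3481 in MKK2-B, against 1757 in Col-0, which is 1.19-fold and 1.98-fold of Col-0. The psbI signal was 1744 in MKK2-A and 2323 in MKK2-B, against 1771 in Col-0, 0.985-fold and 1.31-fold. MKK2-A was 0.601-fold of MKK2-B for psbK and 0.751-fold for psbI. Thus MKK2-B was highest for psbK and psbI and lowest for psbA.

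Of the other photosystem II genes only psbN passed 1.5-fold, in MKK2-B. For psbN, which in tobacco is needed to assemble the complex but is no subunit of it, the signal was 73.3 in MKK2-A and 91.9 in MKK2-B, against 58.4 in Col-0, and MKK2-B was 1.57-fold higher. With a pseudocount of 16 in place of the floor its log2 ratio was 0.54, which is under 1.5-fold. The small subunit psbT had log2 ratios to Col-0 of 0.13 in MKK2-A and 0.37 in MKK2-B. The lowest ratio in MKK2-A belonged to the small subunit psbZ, with a signal of 2679 in MKK2-A and 2799 in MKK2-B, against 3362 in Col-0. The remaining 6 genes are psbE and psbF, which encode the cytochrome of photosystem II, and the small subunit genes psbH, psbJ, psbL and psbM. Of these psbE was 0.948-fold and psbF 0.956-fold of Col-0 in MKK2-A, and 0.985-fold and 0.904-fold in MKK2-B. The values of psbH were 0.914-fold and 0.952-fold, and those of psbM were 0.810-fold and 0.829-fold, in MKK2-A and MKK2-B. For psbJ they were 0.918-fold and 0.778-fold, and for psbL 0.864-fold and 0.777-fold. All 6 were thus slightly lower in each line than in Col-0.

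In the cytochrome b6f complex the small subunit genes petG and petL, which lie next to each other and share a transcript, stood on opposite sides of Col-0. The petG signal (ArthCp041) was 265 in MKK2-A and 187 in MKK2-B, against 95.5 in Col-0, so it was 2.77-fold and 1.96-fold higher. The petL signal was 1223 in MKK2-A and 1268 in MKK2-B, against 1720 in Col-0, so it was 1.41-fold and 1.36-fold lower. Both lines lay above Col-0 for petG and below it for petL. The petA gene, for cytochrome f, was 0.774-fold of Col-0 in MKK2-A and 0.779-fold in MKK2-B. The gene of cytochrome b6, petB, had 4777 in MKK2-A and 5258 in MKK2-B, against 5319 in Col-0. The signal of petD, which encodes subunit IV, was 46.8 in MKK2-A, 43.9 in MKK2-B and 43.2 in Col-0, and that of the small subunit petN was 93.8, 100.6 and 115 in the same order. The petD signal is close to the floor of 25, where MAS5 signals are imprecise.

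The ATP synthase genes had the narrowest range of ratios to Col-0 in MKK2-A. The catalytic head subunits are encoded by atpA and atpB. The atpA signal was 4396 in MKK2-A and 4650 in MKK2-B, against 4457 in Col-0, and the atpB signal was 5597 in MKK2-A and 6363 in MKK2-B, against 6884 in Col-0. No other ATP synthase ratio in MKK2-A was as low as that of atpB, at 0.813-fold. The epsilon subunit gene atpE, which is transcribed with atpB, was 0.866-fold of Col-0 in MKK2-A and 0.933-fold in MKK2-B. For atpF, a stalk subunit, the signal was 2124 in MKK2-A and 2153 in MKK2-B, against 2544 in Col-0. The membrane ring gene atpH was 0.895-fold and 0.881-fold of Col-0 in MKK2-A and MKK2-B. The proton channel subunit gene atpI had 244 in MKK2-A, 246 in MKK2-B and 237 in Col-0, so the lines were 1.03-fold and 1.04-fold of Col-0.

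Among the single genes rbcL stood apart. The rbcL signal (ArthCp030), which reads the RNA for the large subunit of Rubisco and not the protein, was 925 in MKK2-A and 763 in MKK2-B, against 366 in Col-0. It was 2.53-fold higher in MKK2-A and 2.09-fold higher in MKK2-B, and MKK2-A was 1.21-fold of MKK2-B. The gene accD encodes a subunit of the plastid acetyl-CoA carboxylase of fatty acid synthesis. Its signal was 1074 in MKK2-A and 908 in MKK2-B, against 793 in Col-0, so it was 1.35-fold and 1.14-fold of Col-0. The envelope protein gene cemA had 2377 in MKK2-A and 2424 in MKK2-B against 2708 in Col-0. The gene ccsA, needed to attach haem to c-type cytochromes, had 4025 in MKK2-A and 4093 in MKK2-B against 4780 in Col-0. Thus rbcL and accD were higher in both lines than in Col-0, and cemA and ccsA were lower, as were most members with a mean signal of 1000 or more.

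The comparisons of MKK2-A and MKK2-B with Col-0 share the Col-0 array, so a low Col-0 signal for petG, rbcL or psbB enters both ratios. The lines differ from each other by less: MKK2-A was 1.41-fold of MKK2-B for petG, 1.21-fold for rbcL and 0.870-fold for psbB. At a threshold of 1.5-fold, psbB, psbK, psbN, petG and rbcL were higher in MKK2-B than in Col-0 (5 of 36, against 3.08% of all probe sets) and psbA was lower (1 of 36, against 3.12%). In MKK2-A the threshold of 1.5-fold gave petG, rbcL and psbB again, against 3.31% of all probe sets, and no lower gene, against 3.92%. Between the lines psbA was higher in MKK2-A (1 of 36, against 2.34%) and psbK lower (1 of 36, against 2.42%).

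The spread of probe sets of similar signal gives a scale for these ratios, though it holds real differences as well as array noise. Among the 568 probe sets with a mean signal of 1000 or more that are not named to a plastid gene, the central 95% lay between 0.738-fold and 1.71-fold for MKK2-A over Col-0, 0.683-fold and 1.57-fold for MKK2-B over Col-0, and 0.763-fold and 1.33-fold for MKK2-A over MKK2-B. Of the 25 members this bright, petL lay outside the range in MKK2-A, and psbA and psbK lay outside it in MKK2-B. Between the lines psbA, psbK and psbI lay outside. For 5467 probe sets with a mean signal of 100 to 1000 the range was 0.643-fold to 2.40-fold in MKK2-A, 0.617-fold to 2.01-fold in MKK2-B, and 0.683-fold to 1.61-fold between the lines. Of 9 members in that class, petG and rbcL lay outside it in MKK2-A and rbcL and psbB in MKK2-B, and between the lines none did.

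The direction of the small differences went with the brightness of the probe set. Of the 25 members with a mean signal of 1000 or more, 23 were lower in MKK2-A than in Col-0 and 21 were lower in MKK2-B, with median log2 ratios of -0.19 and -0.16. Of the 11 members under 1000, 9 were higher in MKK2-A and 9 in MKK2-B, with medians of 0.23 and 0.19. Of the 5467 probe sets with a mean signal of 100 to 1000 not named to a plastid gene, 2502 were higher in MKK2-A and 2462 in MKK2-B, with medians of -0.03 and -0.04. Quantile normalization left 20 of the 25 bright members lower in each line, with medians of -0.08 in MKK2-A and -0.10 in MKK2-B. Centring on plastid genes left 18 of the 25 lower in MKK2-A and 17 in MKK2-B. Among the 568 bright probe sets not named to a plastid gene, 357 were lower in MKK2-A and 260 in MKK2-B, with median log2 ratios of -0.05 and 0.02.

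**Figure D3:**
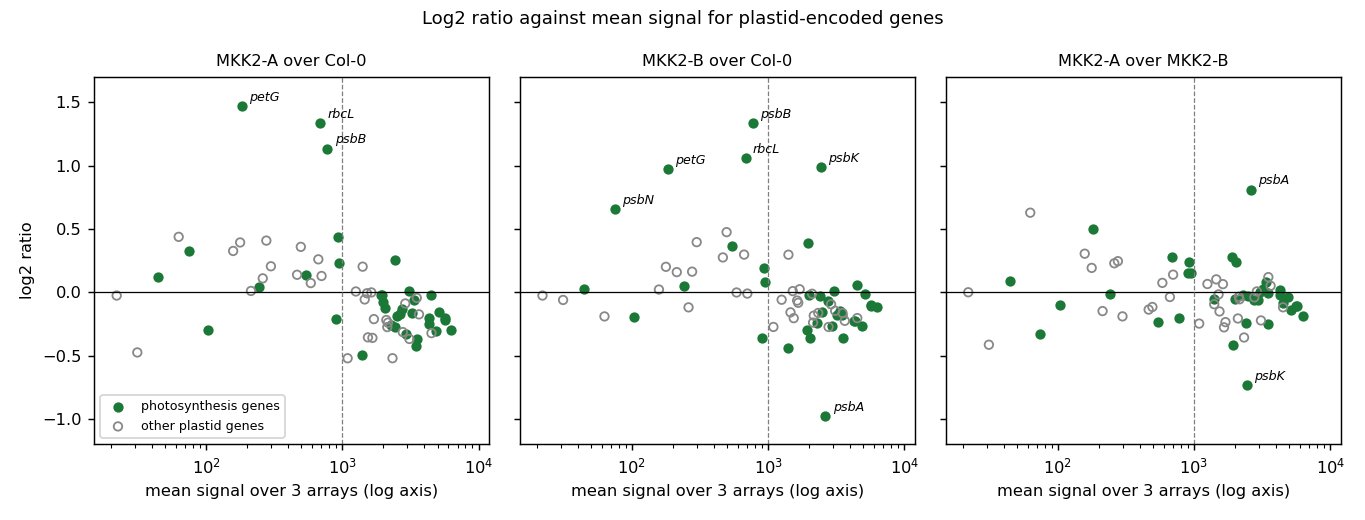
Log2 ratio (vertical axis) against the mean signal over the 3 arrays (log axis) for the 36 plastid photosynthesis genes (filled) and 33 other plastid genes (open), in 3 panels for MKK2-A over Col-0, MKK2-B over Col-0 and MKK2-A over MKK2-B; the dashed line marks a signal of 1000. Right of the dashed line most points of the first and second panels lie slightly below 0, with psbK, psbI and psbA furthest from the rest in MKK2-B, and left of it most lie above 0.

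The mean signal contains the arrays of the ratio itself, so the genes were also divided by the array that is not in the ratio. By their MKK2-B signal, 26 members were at 1000 or more, of which 23 were lower in MKK2-A than in Col-0, and of the 10 under 1000, 8 were higher. By their MKK2-A signal, 27 members were at 1000 or more, of which 21 were lower in MKK2-B than in Col-0, and of the 9 under 1000, 7 were higher. Between the lines, divided by the Col-0 signal, 18 of 26 bright members and 5 of 10 dimmer ones were lower in MKK2-A. Probe sets not named to a plastid gene were divided the same way, with dimmer ones at 100 to 1000. Of these, 349 of 577 bright ones were lower in MKK2-A than in Col-0 and 2474 of 5400 dimmer ones higher. In MKK2-B 256 of 581 bright ones were lower than in Col-0 and 2400 of 5297 dimmer ones higher. Between the lines 345 of 560 bright ones and 2686 of 5510 dimmer ones were lower in MKK2-A. The 33 other plastid genes with a probe set, which encode ribosomal proteins, the plastid polymerase, the NDH complex, clpP, matK and ycf proteins, showed the same division in MKK2-A. By their MKK2-B signal 17 of 19 bright ones were lower in MKK2-A than in Col-0 and 12 of 14 dimmer ones higher. By their MKK2-A signal 15 of 18 bright ones were lower in MKK2-B than in Col-0 and 8 of 15 dimmer ones higher. Why brightness goes with the direction was not tested.

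Among the 33 other plastid genes with a probe set of their own, which leaves out the multi-copy genes, no ratio to Col-0 was as far from 1 as those of petG, rbcL and psbB in both lines or that of psbA in MKK2-B. None of the 33 reached 1.5-fold against Col-0 in MKK2-A or in MKK2-B. Their median log2 ratio was -0.03 in MKK2-A and -0.06 in MKK2-B. In MKK2-A they ranged from -0.52 for rps18, a ribosomal protein gene, to 0.44 for rpoB, a polymerase subunit gene. In MKK2-B they ranged from -0.27 for matK, an intron maturase gene, to 0.48 for rpl36, a ribosomal protein gene. The signal of rps18 was 905 in MKK2-A and 1074 in MKK2-B, against 1299 in Col-0. The signal of rpoB was 79.0 in MKK2-A and 51.1 in MKK2-B, against 58.3 in Col-0, so MKK2-A was 1.55-fold of MKK2-B, the only one of the 33 past 1.5-fold between the lines.

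Genes of one operon share a primary transcript, so their probe sets are not independent readings. The list of textbook operons used here, which may leave out co-transcribed genes, holds 27 of the 36 genes in 9 groups. These are the groups of psbB, psbE, psbD, psaA, psbK, atpI, atpB, psaI and petL, each named by its first listed gene. In 7 of these groups the highest and the lowest ratio to Col-0 lay between 1.07-fold and 1.24-fold apart in MKK2-A and between 1.01-fold and 1.51-fold apart in MKK2-B, where the widest was psbK with psbI. The genes atpB and atpE were 1.07-fold apart in MKK2-A and 1.01-fold in MKK2-B. The group psbE, psbF, psbL and psbJ was 1.11-fold apart in MKK2-A and 1.27-fold in MKK2-B.

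The groups with psbB and with petG had unequal ratios. Within psbB, psbT, psbH, petB and petD the ratios to Col-0 were 2.44-fold apart in MKK2-A and 2.65-fold in MKK2-B, with psbB far above the other four. In genome order psbB, psbT and psbN had ratios above 1 in each line, though psbN is not part of the listed group. The genes that follow, psbH and petB, had ratios below 1 in each line. The next gene, petD, was again above 1, at 1.08-fold in MKK2-A and 1.02-fold in MKK2-B. The ratios of petL and petG were 3.90-fold apart in MKK2-A and 2.66-fold in MKK2-B. The genes after petG in genome order, psaJ, rpl33 and rps18, were below Col-0 in each line, as petL was. They were 0.744-fold, 0.774-fold and 0.697-fold of Col-0 in MKK2-A, and 0.884-fold, 0.904-fold and 0.827-fold in MKK2-B. The gene after them, rpl20, was above Col-0 in each line. Between MKK2-A and MKK2-B the 9 groups were 1.06-fold to 1.47-fold apart. The neighbours of rbcL on the genome are atpB, which was 0.813-fold of Col-0 in MKK2-A and 0.924-fold in MKK2-B, and accD, which was 1.35-fold and 1.14-fold.

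**Figure D4:**
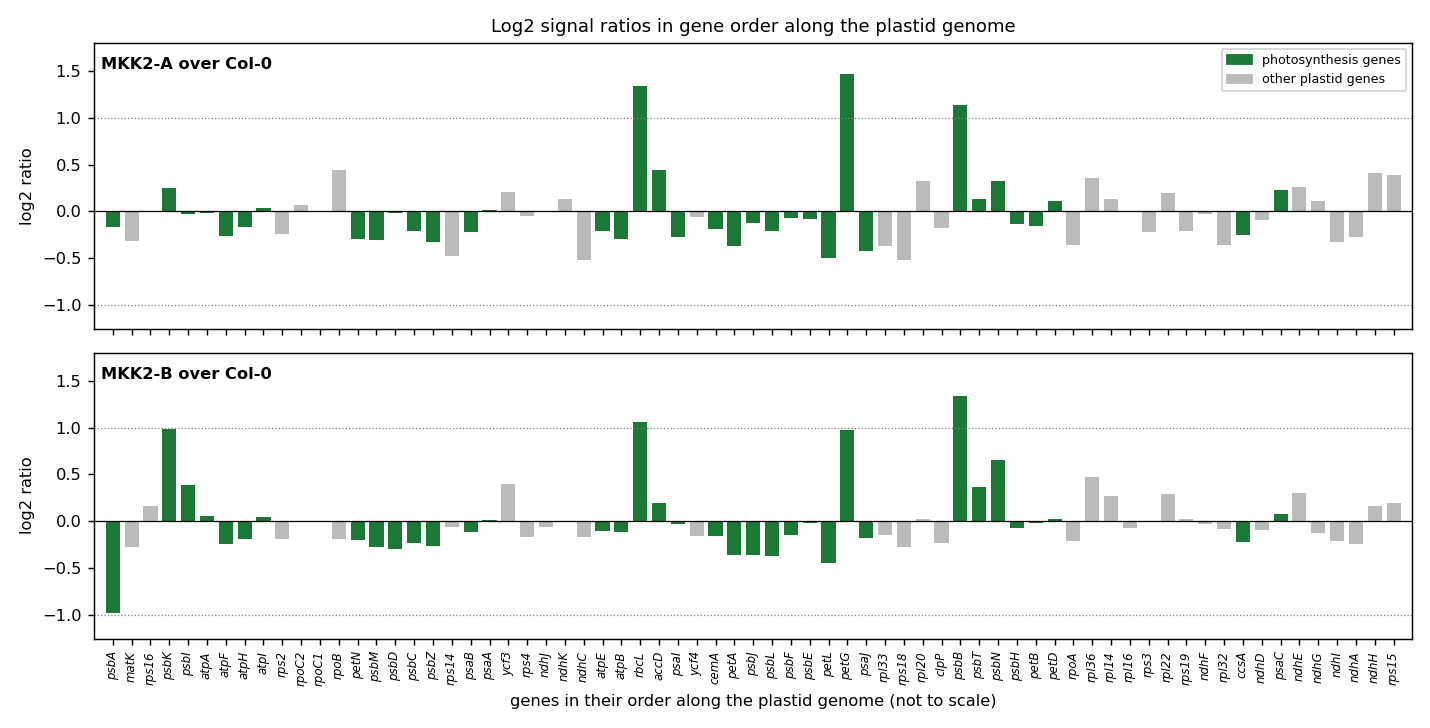
Log2 signal ratios of 69 plastid genes in their order along the plastid genome (not to scale) for MKK2-A over Col-0 (top) and MKK2-B over Col-0 (bottom); green bars are the photosynthesis genes, grey bars other plastid genes, and dotted lines mark 2-fold. The tall bars of rbcL, petG and psbB stand alone among lower neighbours in both panels, and the psbA bar in MKK2-B falls almost to the lower dotted line.

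Nuclear-encoded partners of the same complexes were thinly covered, since 8 of 44 listed genes have a named probe set. Of the others, PETM and ATPG matched no gene name of the annotation, so no probe set was sought for them. None of the 8 reached 1.5-fold in any comparison. The photosystem I gene PSAE1 had 4841 in MKK2-A and 5193 in MKK2-B, against 4324 in Col-0, and PSAN had log2 ratios of 0.04 in MKK2-A and 0.15 in MKK2-B. The photosystem II genes PSBW, PSBY and PSB27 had log2 ratios of -0.08, -0.20 and -0.08 in MKK2-A and of 0.10, -0.06 and 0.22 in MKK2-B. The gamma subunit gene of the ATP synthase ATPC1 had -0.05 and 0.12 in MKK2-A and MKK2-B, and its relative ATPC2, with signals of 32.1 in MKK2-A, 37.0 in MKK2-B and 46.3 in Col-0, had -0.53 and -0.32. For RCA, which reactivates Rubisco, the log2 ratio was -0.19 in MKK2-A and -0.15 in MKK2-B, while rbcL had 1.34 and 1.06. In MKK2-B 5 of the 8 nuclear genes were above Col-0, and in MKK2-A 2 were. All 8 were lower in MKK2-A than in MKK2-B, with a median log2 ratio of -0.16. Of the 568 bright probe sets not named to a plastid gene, 308 were above Col-0 in MKK2-B and 211 in MKK2-A. Among those 568, 347 were lower in MKK2-A than in MKK2-B, with a median log2 ratio of -0.05. For the 22 listed nuclear genes of plastid transcription and RNA processing, no probe set was found by name. Among them RPOTP, RPOTMP, HCF145, PPR10, CRP1, CP31A and CP29A matched no gene name of the annotation, and SIG1 matched 2. No probe set was sought for these, so their absence here says nothing about the array. All other listed nuclear genes were sought only among the 13513 probe sets named to 1 gene. A gene without a probe set here may thus still be on the array.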

How the data were processed

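The deposited values are intensities on a linear scale, 1 for each probe set on each array, which the submitters' processing notes describe as MAS5 signals. Neither a software version nor detection calls nor the genome build of the chip are stated there, and coordinates are left out for that reason. Each array was rescaled to a 2% trimmed mean of 100, and signals under 25 were set to 25 before log2 ratios. The 64 control probe sets were left out, which leaves 22746. Genes were named from the platform annotation through TAIR10.1 gene numbers, which also gave gene order. A further 8 plastid probe sets name more than 1 gene copy and were not compared. The members and lists, operons included, were chosen with earlier results of these data known. Signals on all arrays are given for the extremes of each complex, for members past 1.5-fold and for psbA, rbcL, accD, cemA and ccsA. Alternative settings covered the scaling (none, quantile, loess with span 0.4, centring on plastid genes), low signals (floors of 10 and 50, or a pseudocount of 16), the fold threshold, and how probe sets and genes were summarised. Centring on bright probe sets not named to a plastid gene was chosen after seeing the data. Python 3.11.15, numpy 2.4.6, pandas 2.3.3, scipy 1.17.1, statsmodels 0.14.6 and matplotlib 3.10.9 were used.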

Additional observations from a re-analysis of the deposited data

How the results depend on the processing

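No paired analysis was possible because each genotype has 1 array and the labels share only replicate number 1. In MKK2-A over Col-0, petG, rbcL and psbB were past 2-fold under each alternative scaling, floor and pseudocount. Their log2 ratios were 1.33 to 1.55, 1.29 to 1.42 and 1.07 to 1.21. In MKK2-B rbcL and psbB were past 2-fold too (1.02 to 1.13 and 1.29 to 1.41). Leaving out the rescaling could hardly move these ratios, since each deposited array already had a trimmed mean of 100.01. Nor could the floors, since the lowest signal of these genes, 95.5 for petG in Col-0, lay above each floor. Only quantile normalization, loess, the centrings and the pseudocount could thus test them. In MKK2-B petG (0.87 to 1.04) and psbK (0.96 to 1.06) crossed 2-fold under some settings. Quantile normalization and centring on plastid genes each gave 4 members 2-fold higher in place of 2. The psbA ratio passed 2-fold lower (1 member in place of 0) when centred on bright probe sets not named to a plastid gene. The threshold of 1.5-fold gave 5 higher and 1 lower in MKK2-B and 1 each way between the lines, and that of 3-fold gave 0 higher in each line. With quantile normalization the MKK2-A medians were -0.029 over all members, -0.036 for photosystem I, -0.027 for the ATP synthase and -0.075 for bright members. There, the MKK2-B median of photosystem I was 0.034, and centred on plastid genes it was 0.044, so its sign turned. The mean in place of the median gave, in MKK2-A, 0.0067 over all members, 0.013 for photosystem II, 0.046 for cytochrome b6f, 0.33 for the single genes and 0.43 for members under 1000. In MKK2-B it gave 0.023 over all members, 0.049 for photosystem II, -0.0026 for cytochrome b6f, 0.22 for the single genes and 0.38 for members under 1000. The sign over all members thus turned in both lines, that of photosystem II in both and that of cytochrome b6f in MKK2-A, while photosystem I and the ATP synthase stayed negative in both. Between the lines cytochrome b6f turned to 0.049. With the pseudocount psbN in MKK2-B had a log2 ratio of 0.54, under 1.5-fold. No member probe set was left out with the suffixed ones, and the mean over probe sets is the same value, since each gene has 1. MAS5 signals near 25, as for petD and psbN, limit those ratios.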

Other observations

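The 8 plastid probe sets that name more than 1 gene copy, mostly genes of the inverted repeat, enter no comparison above. The ndhB probe set, for a subunit of the NDH complex, had a signal of 30.9 in MKK2-A and 47.0 in MKK2-B, against 62.5 in Col-0, so MKK2-A was 0.495-fold of Col-0 near the floor of 25. The ribosomal protein probe sets rps7, rpl2 and rpl23 were bright and near Col-0, with log2 ratios of 0.05, -0.11 and -0.04 in MKK2-A and of 0.15, -0.03 and 0.02 in MKK2-B. Both rps12 probe sets were above Col-0, at 1.06-fold and 1.19-fold in MKK2-A and 1.08-fold and 1.15-fold in MKK2-B. The ycf1 signal was 878 in MKK2-A and 816 in MKK2-B, against 803 in Col-0, and ycf2 was under 25 on all 3 arrays.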
